A study of Homo sapiens with 16 samples.

Results

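The nuclear receptors are a family of ligand-regulated and orphan transcription factors, and 44 of their genes were examined here for binding of BMAL1 and of Myc-CHRONO in human osteosarcoma cells. The genes were taken from a list of the family without NR1D1 and NR1D2, which encode the REV-ERB receptors, and all 44 were found among 20037 protein-coding genes of the RefSeq table. A gene was counted in a library by 2 windows: a peak overlapping 1 kb to each side of either gene end, called a gene-end peak here, or a peak in the gene or up to 5 kb from it. BMAL1 pairs with CLOCK at E-box sequences to drive the circadian clock, and the CIART product CHRONO represses that complex. Nuclear receptors bind DNA as monomers, homodimers or heterodimers with a retinoid X receptor, and many switch from corepressors to coactivators when a hormone or lipid binds. In the clock, REV-ERB and ROR receptors act on the BMAL1 gene itself, and other members of the family are studied as outputs through which the clock reaches metabolism.

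Chromatin was immunoprecipitated with an antibody to BMAL1 from U2OS, an established osteosarcoma line, and from a line labelled U2OS-CHR, which the series design calls U2OS-CHRONO. Both lines received 200 nM dexamethasone, a glucocorticoid that sets the phase of a culture and is itself a ligand of NR3C1, and were sampled at 0, 4, 8, 12, 16 and 20 h of a series begun 4 h ahead of the trough of luciferase driven by the BMAL1 promoter. One further U2OS-CHRONO library was precipitated with an antibody to Myc, has no time or treatment label, and is named Myc-CHRONO in the design. How U2OS-CHRONO expresses its construct, and whether it is 1 clone, is not given in the sources used here. There was 1 library per line and time, so the 6 times served as pairs and every spread below is over times, not over replicate cultures. Peak lists hold no expression level, so neither the cell type nor the expression of any receptor was checked. The 12 BMAL1 lists held from 337 peaks (U2OS at 8 h) to 9391 (U2OS-CHRONO at 16 h), the Myc list held 2487, and the U2OS-CHRONO list was the longer at every time. Read depth is unknown, so a missing peak is a site not called and not a site shown to be unbound.

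The sequences just before the starts of 5 members are printed first because called peaks overlapped them in the patterns described below. Each is the 250 bases before the RefSeq start (GRCh38.p14), written 5′ to 3′ along the gene's strand, with the E-box CACGTG and the related CACGTT or AACGTG in capitals. NR6A1 is shown as the start with a peak in every BMAL1 library, ESR2 as a start with peaks in U2OS alone, NR4A3 as a start with peaks in U2OS-CHRONO alone, and NR2F2 and NR2C1 as the 2 starts where a motif and a peak met. NR2C1 was chosen after its values were seen. The RefSeq start of NR2F2 lies inside its annotated gene, so its window is transcribed in longer forms of the gene.
NR6A1, chr9:124771312-124771561, minus strand: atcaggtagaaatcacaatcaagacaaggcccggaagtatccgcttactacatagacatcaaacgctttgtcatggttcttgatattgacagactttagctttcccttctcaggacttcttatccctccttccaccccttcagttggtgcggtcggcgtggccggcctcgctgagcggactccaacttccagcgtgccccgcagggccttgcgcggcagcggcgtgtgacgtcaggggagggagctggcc
ESR2, chr14:64338614-64338863, minus strand: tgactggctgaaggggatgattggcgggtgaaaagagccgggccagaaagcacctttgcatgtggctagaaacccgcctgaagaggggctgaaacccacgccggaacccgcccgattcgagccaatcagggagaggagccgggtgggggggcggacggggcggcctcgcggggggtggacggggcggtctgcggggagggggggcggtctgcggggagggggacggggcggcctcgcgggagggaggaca
NR4A3, chr9:99821635-99821884, plus strand: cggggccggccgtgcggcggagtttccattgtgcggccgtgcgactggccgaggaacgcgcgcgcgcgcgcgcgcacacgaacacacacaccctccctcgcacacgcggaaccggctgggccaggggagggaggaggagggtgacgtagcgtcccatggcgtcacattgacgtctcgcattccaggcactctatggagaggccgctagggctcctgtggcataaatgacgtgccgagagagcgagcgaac
NR2F2, chr15:96332315-96332564, plus strand: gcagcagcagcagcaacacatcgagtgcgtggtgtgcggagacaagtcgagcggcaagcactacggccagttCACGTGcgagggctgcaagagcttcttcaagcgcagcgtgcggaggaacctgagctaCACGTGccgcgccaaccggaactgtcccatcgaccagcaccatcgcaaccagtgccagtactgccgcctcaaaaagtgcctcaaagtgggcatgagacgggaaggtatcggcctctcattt
NR2C1, chr12:95073619-95073868, minus strand: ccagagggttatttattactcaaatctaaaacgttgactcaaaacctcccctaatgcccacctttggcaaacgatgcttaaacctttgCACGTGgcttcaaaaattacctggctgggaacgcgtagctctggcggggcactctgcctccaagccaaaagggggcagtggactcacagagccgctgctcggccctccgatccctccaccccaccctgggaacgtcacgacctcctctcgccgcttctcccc
Counting back from the start, NR2F2 held CACGTG at positions -178 and -121, and NR2C1 held it at -162. The NR6A1, ESR2 and NR4A3 windows held none of the 3 words. The search covered both strands, since CACGTG is its own reverse complement and CACGTT and AACGTG are each other's. Of the 39 members with an entry in the table, 3 (7.69%) held CACGTG in this window and 1 (2.56%) held CACGTT or AACGTG, against 7.84% and 4.67% of 15843 protein-coding starts. The members' shares were no higher than those of all starts. The other 2 members with a motif, NR5A1 with CACGTG and NR2F1 with AACGTG, had no peak over it in any library. A BMAL1 peak overlapped the window at 10 of the 39 members, and 2 of these also held a motif. Neither share was counted over all starts, so neither count can be called high or low. VDR, HNF4G, NR2F6, NR4A2 and NR0B2 had no entry.

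BMAL1 was called near the ends of a minority of the receptor genes and inside many more. A gene-end peak was present in at least 1 BMAL1 library at 13 of the 44 members (29.5%), where the background over all protein-coding genes was 20.8%. In the gene or within 5 kb, 29 members (65.9%) had one, against 41.5% of all genes. The receptor genes are long, with a median span of 58.4 kb against 24.1 kb for all genes, and the members with a peak in the wider window had a median span of 100.0 kb, against 22.8 kb for those without. The part of gene length in these shares was not tested. Among all genes of at least that median span 61.0% had a BMAL1 peak in the wider window, beside 17 of the 22 members of that length (77.3%). At gene ends 6 members were called in 3 or more BMAL1 libraries, against 9.63% of all genes, and NR6A1 alone among members was called in all 12, against 0.359%. With the Myc library added, as at NR6A1, the background was 0.245%. In the wider window NR6A1 and THRA were called in all 12, against 0.804% of all genes. At the other end, 15 members had no BMAL1 peak in either window in any library: RORB, NR1H4, VDR, NR1I2, NR1I3, HNF4A, RXRB, NR2C2, NR2E1, NR2E3, NR2F1, NR2F6, NR5A1, NR0B1 and NR0B2. The set spans several receptor groups, and its median span was the 22.8 kb given above. With 41.5% of all genes called in the wider window, most genes also had no BMAL1 peak there.

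**Figure D1:**
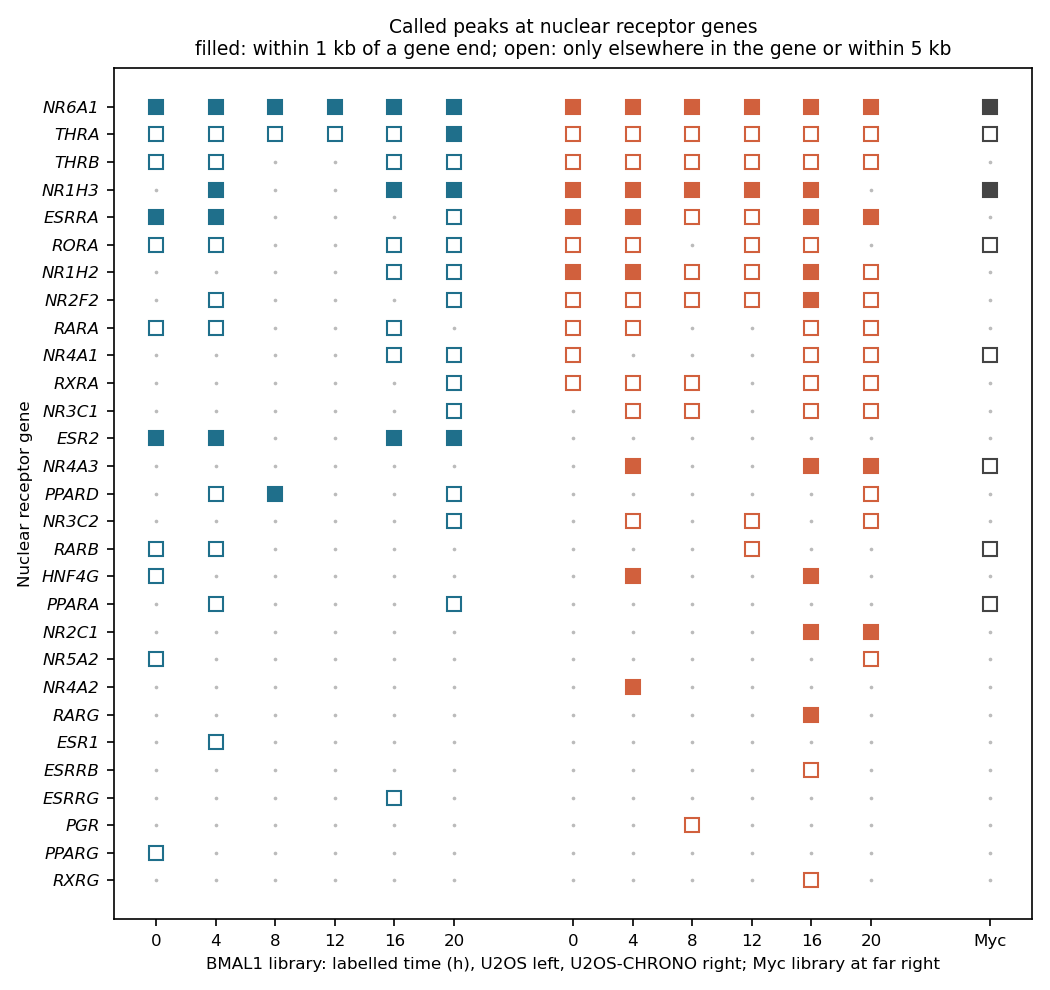
Called peaks at the 29 nuclear receptor genes with a peak in any library, by labelled time in hours for U2OS (left) and U2OS-CHRONO (right), with the Myc library at the far right. Filled squares are gene-end peaks, open squares are peaks elsewhere in the gene or within 5 kb; NR6A1 is filled in all 13 lists, ESR2 in U2OS at 4 times alone, and NR4A3 in U2OS-CHRONO at 3 times alone among BMAL1 lists.

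NR6A1 encodes germ cell nuclear factor, an orphan receptor known as a repressor in germ cells and early embryos. Of the listed members it had the highest-scoring gene-end peak in each of the 12 BMAL1 lists and in the Myc list. NR1D1 and NR1D2 were left out of this ranking by the member rule. The gene lies on the minus strand of chromosome 9, at 124517275 to 124771311, and its merged region at the start spanned 124771175 to 124772612. The BMAL1 peaks were 388 to 1429 bp wide, and the Myc peak was 148 bp wide. The deposited score of the highest peak there was 881, 888, 99.3, 438, 538 and 645 in U2OS at 0, 4, 8, 12, 16 and 20 h. In U2OS-CHRONO it was 585, 667, 91.7, 151, 412 and 333 at the same times. The score has no stated definition and is compared only within a list. The peak stood among the top 0.586% to 1.27% of the U2OS list at every time but 8 h, the shortest list, where it stood at 20.5%. In U2OS-CHRONO it stood at 1.71% to 4.09% at 0, 4, 16 and 20 h, at 12.7% at 12 h and at 29.6% at 8 h. The Myc peak at this site (124771572 to 124771719) stood at 11.9% of its list, the best place of any Myc peak at a member. It began just beyond the printed sequence.

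Lists of unequal length cannot be compared by rank, so the NR6A1 region was also ranked at each time among the regions called in both lines at that time. These numbered 1937, 3094, 179, 818, 1736 and 2799 from 0 to 20 h. NR6A1 ranked 25, 31, 65, 22, 34 and 61 by the U2OS score and 96, 149, 152.5, 355, 274.5 and 278.5 by the U2OS-CHRONO score. It ranked lower in U2OS-CHRONO at 6 of 6 times. The mean log2 ratio of the ranks, U2OS-CHRONO over U2OS, was 2.44 ± 0.96 (SD, n = 6 times), or 5.43 times further down. By a two-sided exact paired permutation test over the 6 times p was 0.0312, and no smaller value is possible with 6 pairs. Adjusted by the Benjamini-Hochberg method across the 167 regions called in all 12 BMAL1 libraries, the p of this permutation test was 0.0803, which misses 0.05. Of those regions, 27.5% ranked lower in U2OS-CHRONO at 6 of 6 times and 0.0% passed after adjustment (38.9% at an unadjusted p under 0.05), with a median rank ratio of 1.17. With 6 pairs no region could pass unless most of the 167 reached the smallest p, so the adjusted test cannot decide here. NR6A1 also had a second region inside the gene, 112 kb from its start, called at 2 U2OS and 5 U2OS-CHRONO times.

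**Figure D2:**
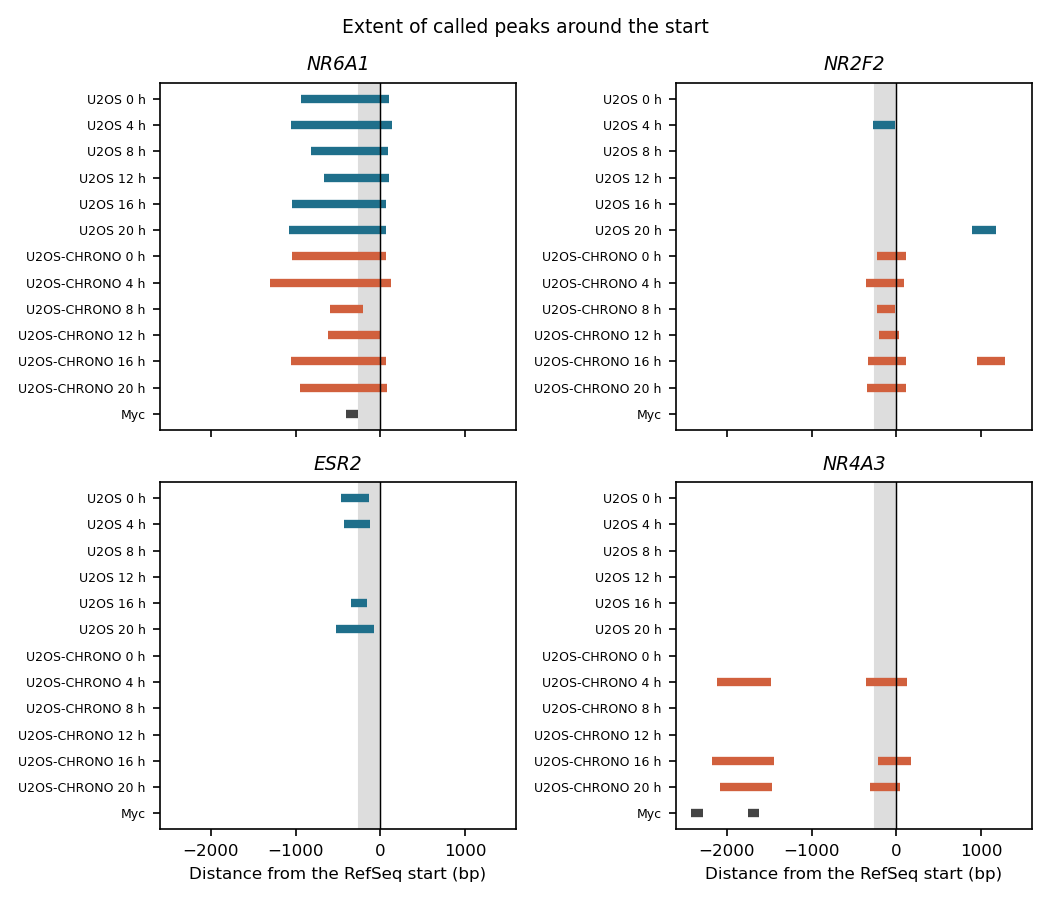
Extent of each called peak around the RefSeq start of NR6A1, NR2F2, ESR2 and NR4A3, in bp along the gene's strand, with 1 row per library; the grey band is the 250 bases printed above. NR6A1 has a peak in every row, ESR2 in 4 U2OS rows, and NR4A3 in 3 U2OS-CHRONO rows and, further upstream, in the Myc row.

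Among the thyroid hormone and retinoic acid receptors, all 5 members had a BMAL1 peak in the wider window. THRA and RARG, 2 of them, had a gene-end peak, each in 1 library. The background was 41.5% of all genes in the wider window and 20.8% at gene ends. THRA encodes a receptor of thyroid hormone and lies beside NR1D1 on chromosome 17. Its main region lay inside the gene, at 40067364 to 40070619, centred 6.03 kb from the start, and was called in all 12 BMAL1 libraries and the Myc library. The score of its highest peak was 305, 383, 66.0, 214, 216 and 383 in U2OS from 0 to 20 h and 734, 1559, 269, 303, 1146 and 427 in U2OS-CHRONO. Among the regions called in both lines it ranked 164, 185, 122, 95, 208 and 172 in U2OS and 56, 18, 57, 130, 23 and 159 in U2OS-CHRONO. It ranked higher in U2OS-CHRONO at every time but 12 h, the opposite order to NR6A1, though at 20 h the ranks were close. The mean log2 rank ratio was -1.48 ± 1.56 (SD, n = 6 times), within its spread (exact paired permutation p = 0.0938, adjusted p = 0.17). A second region in the gene, 9.61 kb from the start, was called at 2 U2OS and 5 U2OS-CHRONO times and also by Myc. The strong NR1D1 peaks overlap the outer part of the 5 kb flank of THRA and belong to an end of NR1D1. The main region of THRA does not lie near an end of another gene.

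THRB, the second thyroid hormone receptor gene, had its main region deep in a gene of great length, 310 kb from the start (24185712 to 24186327 on chromosome 3). Its scores were 76.2, 121, 56.2 and 143 in U2OS at 0, 4, 16 and 20 h, with no peak at 8 and 12 h. In U2OS-CHRONO the region was called at all 6 times, with scores of 247, 343, 133, 115, 212 and 113. With lists of equal size THRB counted at 4 U2OS and 5 U2OS-CHRONO times. RARA, a retinoic acid receptor, had a region 9.03 kb from its start called at 0, 4 and 16 h in U2OS and at 0, 4, 16 and 20 h in U2OS-CHRONO. The U2OS scores there were 77.7, 126 and 67.0, and the U2OS-CHRONO scores were 90.0, 54.8, 89.3 and 87.7. At equal list sizes RARA counted at 3 U2OS and 2 U2OS-CHRONO times, so the order of the lines turned. RARB had a peak at 2 U2OS times and 1 U2OS-CHRONO time, in different places. Of their partners, RXRA had a region 2.56 kb before its start called at 1 U2OS time (20 h) and at 0, 4, 8, 16 and 20 h in U2OS-CHRONO. Its score was 52.5 in U2OS and 105, 78.3, 62.0, 62.6 and 101 in U2OS-CHRONO. At equal list sizes RXRA counted at 1 and 3 times. RXRG had 1 peak in 1 library and RXRB had none.

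Of the 6 lipid and bile acid sensors, 3 had a gene-end peak and 5 a peak in the wider window, against 20.8 and 41.5% of all genes. The liver X receptor genes NR1H2 and NR1H3, whose proteins sense oxysterols, had the most, and both shared their site with a neighbour. The NR1H3 region (47268944 to 47269993 on chromosome 11) lies at the far end of the gene, 21.2 kb from its start, and within 1 kb of an end of MADD. It was called at 4, 16 and 20 h in U2OS, with scores of 53.0, 96.6 and 82.0. In U2OS-CHRONO it was called at 0, 4, 8, 12 and 16 h, with scores of 283, 319, 51.2, 72.3 and 153. With lists of equal size NR1H3 counted at 3 U2OS and 4 U2OS-CHRONO times. The NR1H2 region (50383931 to 50384911 on chromosome 19) lies past its far end and within 1 kb of an end of POLD1, a DNA polymerase gene. It was called at 16 and 20 h in U2OS, with scores of 51.5 and 91.2, and at all 6 U2OS-CHRONO times, with scores of 66.7 to 274. Some of these peaks stopped short of the 1 kb window, so by gene ends NR1H2 counted at 0 U2OS and 3 U2OS-CHRONO times, and at 0 and 1 when the lists were cut to equal size. At its own start NR1H2 had 1 peak each at 0 and 16 h in U2OS-CHRONO.

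The PPAR genes, whose proteins respond to fatty acids, had few calls. PPARD had a gene-end peak in 1 library, U2OS at 8 h, and peaks in the gene at 2 more U2OS times and 1 U2OS-CHRONO time. PPARA had a peak in the wider window at 2 U2OS times and PPARG at 1, and neither had one in U2OS-CHRONO. Of the ROR receptors, which activate the BMAL1 gene, RORA had scattered peaks at 4 times of each line, and at equal list sizes at 4 U2OS and 0 U2OS-CHRONO times. They fell into 7 places along the gene. The place called most often in U2OS (60804938 to 60805303 on chromosome 15) had scores of 85.7, 53.9 and 63.1 at 0, 4 and 20 h and was never called in U2OS-CHRONO. The one called most often in U2OS-CHRONO (61227232 to 61227807) had scores of 63.7, 52.7 and 74.6 at 0, 4 and 16 h, and 55.0 at 20 h in U2OS. HNF4G had a gene-end peak at 2 U2OS-CHRONO times.

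Among the orphan receptors of the NR2 group, NR2F2 and NR2C1 were called and the other 5 were not. The background in the wider window was 41.5% of all genes. NR2F2 encodes COUP-TFII, a regulator of development and metabolism. Its RefSeq start lies inside the annotated gene (96326046 to 96340263 on chromosome 15), so the region there, 96332212 to 96332681, is not a gene-end peak by the rule. It holds both CACGTG words printed above. The region was called at 4 h in U2OS, with a score of 139, and at all 6 U2OS-CHRONO times, with scores of 131, 241, 61.2, 65.9, 100 and 106. In the wider window NR2F2 counted at 2 U2OS and 6 U2OS-CHRONO times, and at equal list sizes at 2 and 3. NR2C1 encodes testicular receptor 2. A peak over its start and its CACGTG was called at 16 and 20 h in U2OS-CHRONO, with scores of 64.3 and 57.0, and not in U2OS; at equal list sizes 1 of these calls was left.

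ESR2, which encodes estrogen receptor beta, was the single member called at 4 or more additional times in U2OS, a difference shared by 0.025% of all genes at gene ends and by 0.0948% in the wider window. At 3 or more additional times ESR2 was again the single member at gene ends, against 0.15%. Its peaks lay at the start (64338692 to 64339137 on chromosome 14) and overlapped the printed sequence. They were called in U2OS at 0, 4, 16 and 20 h, with scores of 108, 82.2, 50.4 and 77.2, and at no U2OS-CHRONO time. The times without a peak in U2OS, 8 and 12 h, had the shortest lists. Equal list sizes could not change the difference of 4 times, since only U2OS-CHRONO lists were cut and ESR2 had no peak in them. The difference was 1 time among peaks with a score of at least 100. By the exact paired permutation test p was 0.125, and 1.0 after adjustment over the 4175 genes tested. Of these genes 0 passed after adjustment, 0.0% of them, and 16 had an unadjusted p under 0.05 (0.383%). With 6 pairs no gene could pass unless most of the genes tested reached the smallest p.

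Of the estrogen-related receptors, ESRRA, known as a regulator of mitochondrial genes, had 4 regions, each within 1 kb of an end of a neighbour. The region over its start (64305044 to 64305597 on chromosome 11), near CATSPERZ, was called at 0, 16 and 20 h in U2OS-CHRONO with scores of 65.5, 58.8 and 133. A separate peak just upstream was called in U2OS at 4 h, with a score of 59.5. The region at its far end, shared with TRMT112 and PRDX5, was called at 2 U2OS and 3 U2OS-CHRONO times. The last, in the 5 kb flank and at an end of PRDX5, was called at 1 U2OS time with a score of 68.5 and at all 6 U2OS-CHRONO times with scores of 103 to 286. By gene ends the ESRRA count was 2 U2OS and 4 U2OS-CHRONO times, and 2 of each at equal list sizes. ESR1, ESRRB and ESRRG each had a peak in 1 library in the wider window.

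None of the 3 other steroid receptors had a gene-end peak, and all 3 had a peak in the wider window. The background was 20.8 and 41.5% of all genes. All 3 are longer than the receptor median span, and 61.0% of all genes of at least that span had a peak in the wider window. NR3C1 is the glucocorticoid receptor, the target of the dexamethasone given to both lines. It had 1 region inside the gene, 62.5 kb from the start, called at 20 h in U2OS with a score of 96.2. In U2OS-CHRONO it was called at 4, 8, 16 and 20 h, with scores of 125, 64.8, 113 and 61.9. With lists of equal size NR3C1 counted at 1 U2OS and 3 U2OS-CHRONO times. NR3C2, the mineralocorticoid receptor gene, had a region over its RefSeq start, which lies inside the annotated gene, at 1 U2OS and 3 U2OS-CHRONO times. At equal list sizes NR3C2 counted at 1 U2OS and 0 U2OS-CHRONO times, so the order of the lines turned. PGR had 1 peak in 1 U2OS-CHRONO library. The values of NR3C1 were chosen for description after they were seen.

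The NR4A receptors are immediate early genes whose products act without a known ligand. NR4A3 had a peak at its start (99821531 to 99822055 on chromosome 9) at 4, 16 and 20 h in U2OS-CHRONO, with scores of 105, 150 and 90.7, and at no U2OS time. A region 1.81 kb before the start was called at the same 3 times, with scores of 145, 86.1 and 105, and was also marked by a Myc peak. The difference of 3 times also held at equal list sizes (exact paired permutation p = 0.25, adjusted p = 1.0). A difference of 3 or more times towards U2OS-CHRONO was present in 3.7% of all genes and in 2 members, NR4A3 and NR1H2. NR4A1 had a region 28.5 kb from its start at 2 U2OS and 3 U2OS-CHRONO times (2 of each for the gene at equal list sizes), and NR4A2 a gene-end peak at 1 U2OS-CHRONO time. A gap of at least 4 times towards U2OS-CHRONO was present in 1.48% of all genes at gene ends and in 0 members.

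Counted by time, more members had peaks in U2OS-CHRONO than in U2OS at 4 of 6 times and as many at the others, in both windows. By gene ends there were 3, 4, 2, 1, 3 and 4 members in U2OS from 0 to 20 h, where the background was 5.01, 6.8, 0.484, 2.16, 3.84 and 6.45% of all genes. In U2OS-CHRONO there were 4, 7, 2, 2, 9 and 4 members, where it was 9.26, 11.3, 2.75, 4.25, 12.2 and 8.65%. The mean difference was 1.83 ± 2.32 members (SD, n = 6 times), within the spread over times, and 0.167 at equal list sizes. Without 16 h, where the counts were 3 and 9, it was 1.0. In the wider window there were 11, 13, 3, 2, 10 and 15 members in U2OS, beside 11.2, 15.7, 1.3, 5.88, 9.34 and 16.2% of all genes. In U2OS-CHRONO there were 11, 15, 10, 10, 18 and 15 members, beside 18.4, 23.0, 7.96, 11.5, 24.7 and 19.3%. That difference was 4.17 ± 3.92 members, was 4.33 among peaks with a score of at least 100, and turned to -0.667 at equal list sizes. All genes together also had more peaks in U2OS-CHRONO, by 3.95 ± 2.43 percentage points at gene ends. No test was made of a count over the members.

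**Figure D3:**
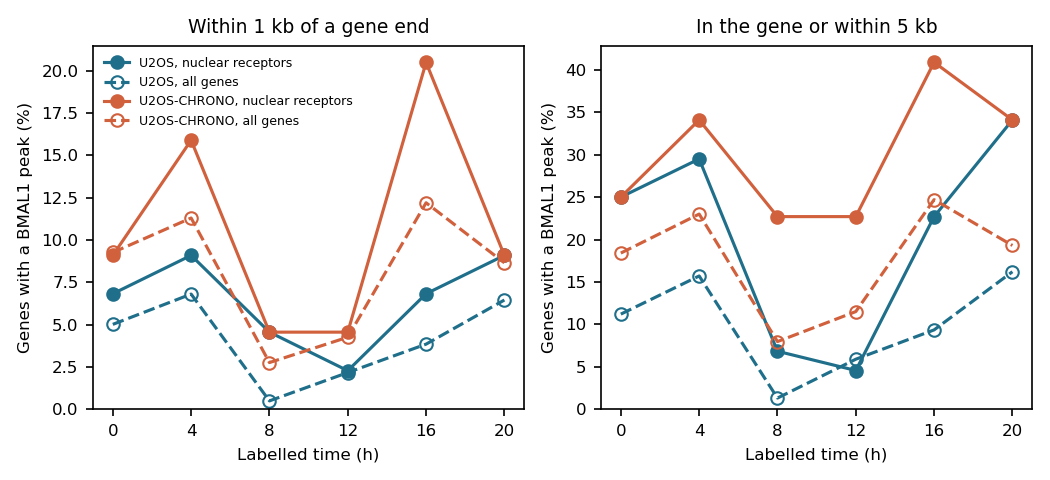
Share of genes with a BMAL1 peak, in percent, by labelled time in hours, for the gene-end window (left) and the gene with 5 kb to each side (right); solid lines are the 44 nuclear receptor genes and dashed lines all 20037 protein-coding genes. Both sets have their lowest shares at 8 and 12 h in both lines, and U2OS-CHRONO lies at or above U2OS at every time in both sets.

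At gene ends 6 members were called in U2OS and 10 in U2OS-CHRONO, against 11.1 and 18.3% of all genes. Of the 13 members with a gene-end peak, 3 had one in both lines (NR1H3, ESRRA and NR6A1), 3 in U2OS alone (THRA, PPARD and ESR2) and 7 in U2OS-CHRONO alone (RARG, NR1H2, HNF4G, NR2C1, NR2F2, NR4A2 and NR4A3). The background was 8.5, 2.59 and 9.75% of all genes. In the wider window 22 members were called in U2OS and 24 in U2OS-CHRONO, against 26.0 and 36.1% of all genes. Both lines were called at 17 members, U2OS alone at 5 and U2OS-CHRONO alone at 7, against 20.7, 5.31 and 15.5% of all genes. The merged BMAL1 regions at the members numbered 84. Of these, 48 (57.1%, Wilson 95% interval 46.5 to 67.2%, counting error only) were called in 1 library alone, near the 56.8% of all regions. A gap of at least 4 times towards U2OS-CHRONO in the wider window was seen at NR1H2, RXRA and NR2F2, where the background was 3.07%. At equal list sizes none of these 3 had a gap of 4: NR1H2 counted at 2 and 5 times, RXRA at 1 and 3, and NR2F2 at 2 and 3.

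**Figure D4:**
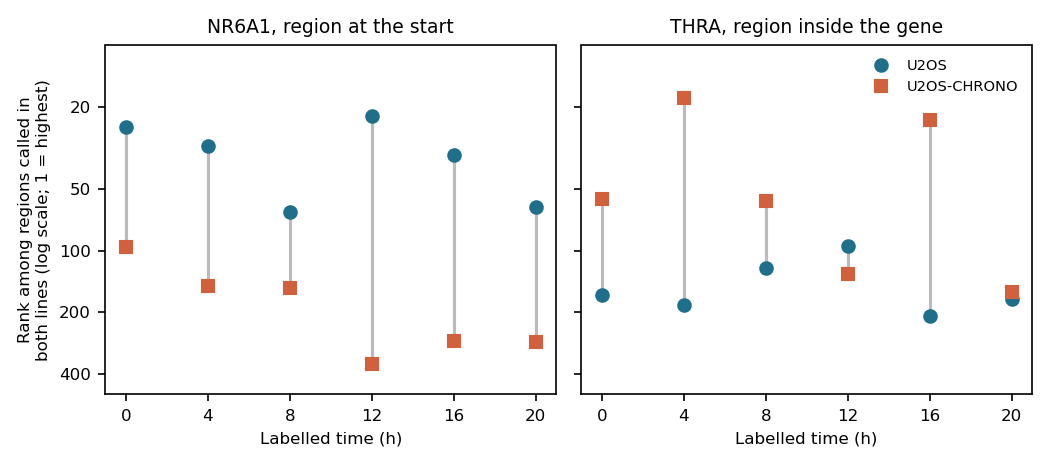
Rank of the NR6A1 region at the start (left) and the THRA region inside the gene (right) among the regions called in both lines at each labelled time in hours, on a log axis with rank 1 at the top; grey bars join both ranks of 1 time. NR6A1 ranks higher in U2OS at 6 of 6 times, THRA higher in U2OS-CHRONO at every time but 12 h.

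The Myc library was compared with BMAL1 at the same genes. A Myc gene-end peak was present at 2 members, NR1H3 and NR6A1, where the background was 5.37% of all genes. Both were among the 13 members with a BMAL1 gene-end peak, that is 100.0% of the Myc members and 15.4% of the BMAL1 members. Over all genes the same overlap was 68.7% of those with a Myc gene-end peak and 17.7% of those with a BMAL1 one. In the wider window 8 members had a Myc peak (18.2% against 9.8% of all genes): THRA, RARB, PPARA, RORA, NR1H3, NR4A1, NR4A3 and NR6A1. All 8 were among the 29 members with a BMAL1 peak in that window, 27.6% of them. Over all genes 80.6% of those with Myc in that window had BMAL1, and 19.1% of those with BMAL1 had Myc. Of 11 Myc peaks at these members, 6 (54.5%) overlapped a BMAL1 peak of some library, near the 55.6% of all Myc peaks.

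The Myc peaks at NR6A1 and in the main THRA region overlapped BMAL1 at all 6 times of both lines, with Myc scores of 92.6 and 70.4. The Myc peak at the far end of NR1H3 overlapped BMAL1 at 3 U2OS and 5 U2OS-CHRONO times, and the second THRA peak at 2 and 5. At NR4A3 1 of 2 Myc peaks overlapped BMAL1 at 3 U2OS-CHRONO times, and at NR4A1 the peak did so at 1. The Myc peaks of RARB, PPARA and RORA, 1 at NR1H3 and 1 at NR4A3 overlapped no BMAL1 peak, with scores of 51.3 to 53.5, near the lower limit of the list. In the wider window 7 members differed between the lines by 3 or more times, 6 towards U2OS-CHRONO and 1 towards U2OS, against 7.31 and 0.379% of all genes. Of these NR4A3 had a Myc peak there, and NR1H2, RXRA, NR2F2, ESR2, ESRRA and NR3C1 had none.

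Nuclear receptors act through coregulators, and a list of 18 of their genes was counted in the same way. A BMAL1 gene-end peak was present at 7 of them in some library and a peak in the wider window at 14, where the background was 20.8 and 41.5% of all genes. Most of the 18 are longer than the receptor median of 58.4 kb. Among all genes of at least that span 61.0% had a BMAL1 peak in the wider window, and the part of gene length was not tested. TBL1X, a subunit of the NCoR corepressor complex, had a gene-end peak at 5 times in U2OS and 6 in U2OS-CHRONO. The coactivator genes PPARGC1A and PPARGC1B had one at 1 and 0 U2OS times and at 4 and 4 U2OS-CHRONO times. PRMT1, an arginine methyltransferase, had one at 1 and 4 times. KDM1A had one at 1 time of each line, and NCOA1 and NCOA6 each in 1 library. PPARGC1A, which spans 681 kb, had a peak in the wider window in all 12 BMAL1 libraries, against 0.804% of all genes of any length. A Myc gene-end peak was present at 2 of the 18, NCOA1 and KDM1A, against 5.37% of all genes.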

How the data were processed

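BMAL1 peak lists of both lines at 6 times each and 1 Myc list were used, 1 list per library; 3 input libraries were not analysed here. Per the submitters' processing notes, MACS 1.4.2, HOMER 4.10.3, bedtools and the build hg38 were used, with no roles stated, and the sources used here do not name the aligner or control. Each deposited list gives the authors' own score per peak; its definition is not stated, and its lowest value was 50.

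Gene positions and starts came from RefSeq tables of GRCh38.p14; exons were not used here. An overlap of 1 bp counted. Regions merged the peaks of all 13 lists. Genes with a gene-end peak were tested between lines by exact paired permutation (sign flips, two-sided), paired by labelled time, with Benjamini-Hochberg adjustment over every gene tested; these p-values measure the spread over times. Members, lists and tests were chosen with earlier results of these data known. Members described with values had a gene-end peak in 3 or more BMAL1 libraries or in the Myc list, a gene-end difference of 3 or more times, or a peak in the wider window in 6 or more libraries; NR2C1, PPARD, NR3C1, NR3C2 and NR4A1 were added after their values were seen. Alternatives changed the score minimum (100), list length (equal at each time, keeping top-scoring peaks), window (5 kb, or the start alone), overlap rule (peak centre), chromosomes, the difference called, the pairing and the times used. The rank test among shared regions, and leaving out peaks near another gene's end, were added after seeing the data. Tests were run first on simulated data, and gene-end calls were checked against bedtools 2.31.1. Python 3.11.15, NumPy 2.4.6, SciPy 1.17.1, pandas 2.3.3 and matplotlib 3.10.9 were used.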

Additional observations from a re-analysis of the deposited data

How the results depend on the processing

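At equal list sizes the difference in members with a peak in the gene or within 5 kb turned to -0.667, against 4.17. It was 4.33 with a score of at least 100, 3.0 without peaks near another gene's end, and 3.4 to 5.0 with a time left out. At gene ends the difference was 1.83, and 0.167 at equal list sizes. There it was 1.0 with a score of at least 100, without 16 h or without peaks near another gene's end. With a 5 kb window it was 3.83. Members with 4 or more additional U2OS-CHRONO times numbered 0, but 2 with a 5 kb window and 2 with a difference of 3 times. The 1 member with 4 or more additional U2OS times, ESR2, became 0 with a score of at least 100, and ranged from 0 to 1 with a time left out (0 without 0, 4, 16 or 20 h, each of which holds 1 of its 4 peaks). The 2 members with a Myc gene-end peak, both with BMAL1, became 0 with a score of at least 100 and 1 without peaks near another gene's end, in each count, and 3 with a 5 kb window. No gene passed the line test with or without pairing by time (0 in both). Leaving out a time kept the NR6A1 rank ratio between 2.13 and 2.68 and the THRA ratio between -1.86 and -1.10 (log2). With a time left out, 5 pairs cannot reach an unadjusted p of 0.05, so the test then says nothing. Depth is unknown, and lists as short as 337 peaks limit what could be called at 8 h.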
